A study of Homo sapiens with 24 samples.

Results

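Androgen synthesis was examined here as chromatin opening around 8 enzyme genes, AKR1C1, AKR1C2, AKR1C3, AKR1C4, HSD3B1, SRD5A1, HSD17B3 and CYP17A1. The data were peak lists from FAIRE-seq, which enriches DNA that is not held by nucleosomes, so a peak is a stretch where the chromatin was open. A peak was counted for these genes when it overlapped 1 of 5 windows of the hg19 genome: chr10:4990000-5270000 for AKR1C1 to AKR1C4, chr1:120030000-120080000 for HSD3B1, chr5:6610000-6690000 for SRD5A1, chr9:98980000-99080000 for HSD17B3 and chr10:104570000-104620000 for CYP17A1. The windows took 1083 of 4663440 peaks on the main chromosomes. Peaks of different libraries that shared at least 1 base were merged into 1 region, which gave 189 regions in the windows of 744442 in all.

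The 24 libraries came from LNCaP, an androgen-dependent prostate cancer cell line, and RES-A, a subline derived from it by prolonged exposure to the androgen receptor antagonist enzalutamide (ENZ). Each was treated for 18 h with DMSO as vehicle, 10 nM dihydrotestosterone (DHT), 10 µM ENZ, or both agents (DHT+ENZ), with 3 biological replicates a group. All cells had first spent 3 days in RPMI with 5% charcoal-stripped serum, which holds little steroid, and for RES-A alone this medium also held 10 µM ENZ. RES-A is a single derived line, so a difference between RES-A and LNCaP cannot be told apart from a difference between any 2 lines with such histories, or from that medium. In bulk chromatin, more cells with an open site and a more open site per cell cannot be told apart.

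Androgens are made from cholesterol by a chain of enzymes. CYP17A1 makes the precursor dehydroepiandrosterone, HSD3B1 converts it to androstenedione, AKR1C3 and HSD17B3 reduce the 17-keto group to give testosterone, and SRD5A1 reduces the steroid A ring to give DHT or its 17-keto form. AKR1C1 and AKR1C2 inactivate DHT, AKR1C4 is mainly a liver enzyme, and AKR1C3 in prostate cancer is known as a route by which tumor cells make androgen while the testis is suppressed.

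Peaks off the main chromosomes, 304 to 1196 a list, were left out. The peaks used per list then ranged from 72950 to 274578 with a median of 196420. The background of a library, taken as the lowest level that pileup and fold enrichment imply, was 0.406 to 5.99 reads per base, with a median of 4.12 in LNCaP and 2.76 in RES-A. LNCaP ENZ replicate 1 (0.406) and LNCaP DHT replicate 1 (0.739) had the lowest, and a weak region could be missed in them. Of the 189 regions, 97 were called in 1 library only (51.3%, against 47.1% of all regions) and 6 in all 24 (3.17%, against 3.94%).

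The AKR1C window held most of the members, with 621 peaks in 116 regions. The genes of this family lie side by side and arose by duplication, and their start sites show how alike they still are. Printed below are the 250 bases before each start that RefSeq gives, on the GRCh38.p14 build, because likeness of this degree bears on where a short read can be placed. The capitals mark ATTGGTTAACCA, an inverted CCAAT box (ATTGG) overlapping GTTAAC, which is the longest run that the AKR1C1, AKR1C2 and AKR1C3 starts have in common, picked for that likeness and searched on both strands.
AKR1C1: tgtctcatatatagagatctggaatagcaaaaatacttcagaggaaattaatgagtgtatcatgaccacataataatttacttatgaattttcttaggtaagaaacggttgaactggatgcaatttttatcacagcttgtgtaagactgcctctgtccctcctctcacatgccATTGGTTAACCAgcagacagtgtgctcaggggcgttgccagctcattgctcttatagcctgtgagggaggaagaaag
AKR1C2: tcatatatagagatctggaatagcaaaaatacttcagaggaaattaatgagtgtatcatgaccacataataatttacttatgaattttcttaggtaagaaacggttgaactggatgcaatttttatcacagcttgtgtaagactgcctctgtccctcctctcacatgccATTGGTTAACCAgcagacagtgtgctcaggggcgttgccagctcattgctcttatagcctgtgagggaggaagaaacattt
AKR1C3, upstream start: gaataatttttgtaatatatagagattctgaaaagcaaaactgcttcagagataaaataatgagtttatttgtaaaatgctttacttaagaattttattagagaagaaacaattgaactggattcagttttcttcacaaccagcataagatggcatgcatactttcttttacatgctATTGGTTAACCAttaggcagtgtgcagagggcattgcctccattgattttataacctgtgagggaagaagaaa
AKR1C3, downstream start: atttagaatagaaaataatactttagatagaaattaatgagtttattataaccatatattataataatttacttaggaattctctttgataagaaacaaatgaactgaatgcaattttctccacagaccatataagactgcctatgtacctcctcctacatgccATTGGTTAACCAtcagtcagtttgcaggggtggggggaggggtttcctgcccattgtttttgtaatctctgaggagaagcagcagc
AKR1C4: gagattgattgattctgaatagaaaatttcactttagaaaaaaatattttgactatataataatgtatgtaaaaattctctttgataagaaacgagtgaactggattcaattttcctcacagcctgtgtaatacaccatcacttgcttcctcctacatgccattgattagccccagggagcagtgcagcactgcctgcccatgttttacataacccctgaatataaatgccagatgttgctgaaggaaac

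In GRCh38 the printed stretch of AKR1C1 lies at chr10:4963165-4963414 on the plus strand and that of AKR1C2 at chr10:5003858-5004107 on the minus strand. The 2 stretches of AKR1C3 lie at chr10:5048531-5048780 and chr10:5094164-5094413 and that of AKR1C4 at chr10:5196587-5196836, all on the plus strand. The 12 letters were found 73 to 86 bases before the start in all of these but AKR1C4, and in 5 of the 35116 promoters of this length (0.0142%). The AKR1C1 and AKR1C2 stretches were identical at 245 of 254 aligned columns (96.5%), while AKR1C4 shared 58.4% to 60.2% with the others. AGAACA, 1 arm of the androgen receptor motif, was in none of the promoters of the 8 genes and in 12.4% of all promoters, which says only that these letters are not in these windows.

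The libraries were read as 50 bases from 1 end. Of all 50-base stretches of the AKR1C1 gene, 37.1% occur elsewhere in GRCh38, against 32.4% for AKR1C2, 11.8% for AKR1C3 and 2.56% for AKR1C4. In the promoters printed above, 200 of 201 stretches of AKR1C1 (99.5%) and 196 of AKR1C2 (97.5%) occur elsewhere, but none of AKR1C3 or AKR1C4. A read from such a stretch cannot be placed on 1 gene, and how such reads were treated is not given in the sources used here. The peak positions are in hg19, for which no annotation was used here, so regions are given by position within the window and not assigned to a single AKR1C gene or promoter.

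The first question was whether the resistant subline opened more or fewer sites at these genes. RES-A had more peaks in the AKR1C window than LNCaP in every treatment. LNCaP libraries held 8 to 27 peaks there (median 20.5) and RES-A libraries 25 to 42 (median 32). Because the lists differ in length, the number was also taken per 100000 peaks of the list, which gave 9.01 to 11.3 in LNCaP (median 9.96) and 13.6 to 19.1 in RES-A (median 16.5).

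By this share the sublines did not overlap. How common this is over the genome was not counted. The 3 LNCaP DMSO libraries had 9.80, 10.3 and 9.32 peaks per 100000 and the 3 RES-A DMSO libraries 19.1, 18.7 and 16.1. With DHT the values were 9.77, 9.10 and 9.01 in LNCaP and 15.4, 15.4 and 18.9 in RES-A. With ENZ, LNCaP had 11.0, 9.44 and 10.1 and RES-A 16.4, 17.6 and 16.7. Under DHT+ENZ the shares were closest, at 11.3, 10.2 and 10.1 in LNCaP and 13.6, 14.6 and 17.1 in RES-A, but each RES-A library still lay above each LNCaP library.

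The share was 1.63-fold higher in RES-A over all treatments (log2 difference 0.71 with a pseudocount of 0.5, SE 0.057, limma adjusted p = 2.48e-10, n = 12 against 12). An exact permutation test of the sublines within treatments gave a two-sided p of 1.25e-05, the smallest it can give. Such differences were common in this pair of lines: of 27103 windows and 100 kb tiles of the genome, 47.8% passed the same test, 25.7% with a higher and 22% with a lower share in RES-A, and their median difference was 0.04. Within treatments the log2 difference was 0.84 with DMSO (adjusted p = 1.47e-05, 15.3% of all windows and tiles past the threshold), 0.79 with DHT (2.41e-05, 22.7%), 0.70 with ENZ (1.16e-04, 17%) and 0.49 with DHT+ENZ (0.00355, 16.7%). By the percent of the window covered the sublines overlapped, at 0.40 to 2.32 in LNCaP and 2.08 to 3.66 in RES-A. That measure passed over all treatments (log2 0.74, limma adjusted p = 0.00269). It passed in no single treatment (adjusted p 0.298 with DMSO, 0.318 with DHT, 0.0814 with ENZ and 0.747 with DHT+ENZ).

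The surroundings of the AKR1C genes moved the same way. In the 2.5 Mb on each side of the window, LNCaP libraries had 131 to 158 and RES-A libraries 187 to 224 peaks per 100000, without overlap. Counted per 100 flanking peaks, the window held 6.19 to 8.13 in LNCaP (median 6.94) and 6.46 to 9.40 in RES-A (median 8.20), so that the log2 difference shrank from 0.71 to 0.20 (exact permutation p = 0.003, an alternative added after seeing the data). The local background under the AKR1C peaks, as a multiple of the library's background, was (median peak of each library) 1.06 to 1.39 in LNCaP and 1.43 to 1.98 in RES-A, against medians of 1.22 and 1.26 over all peaks. The part of the flanks and of the background in the difference was not tested. DNA copy number, on which the local background of such a library also depends, was not analysed here, so more copies of the stretch and more open sites in it cannot be told apart.

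**Figure D1:**
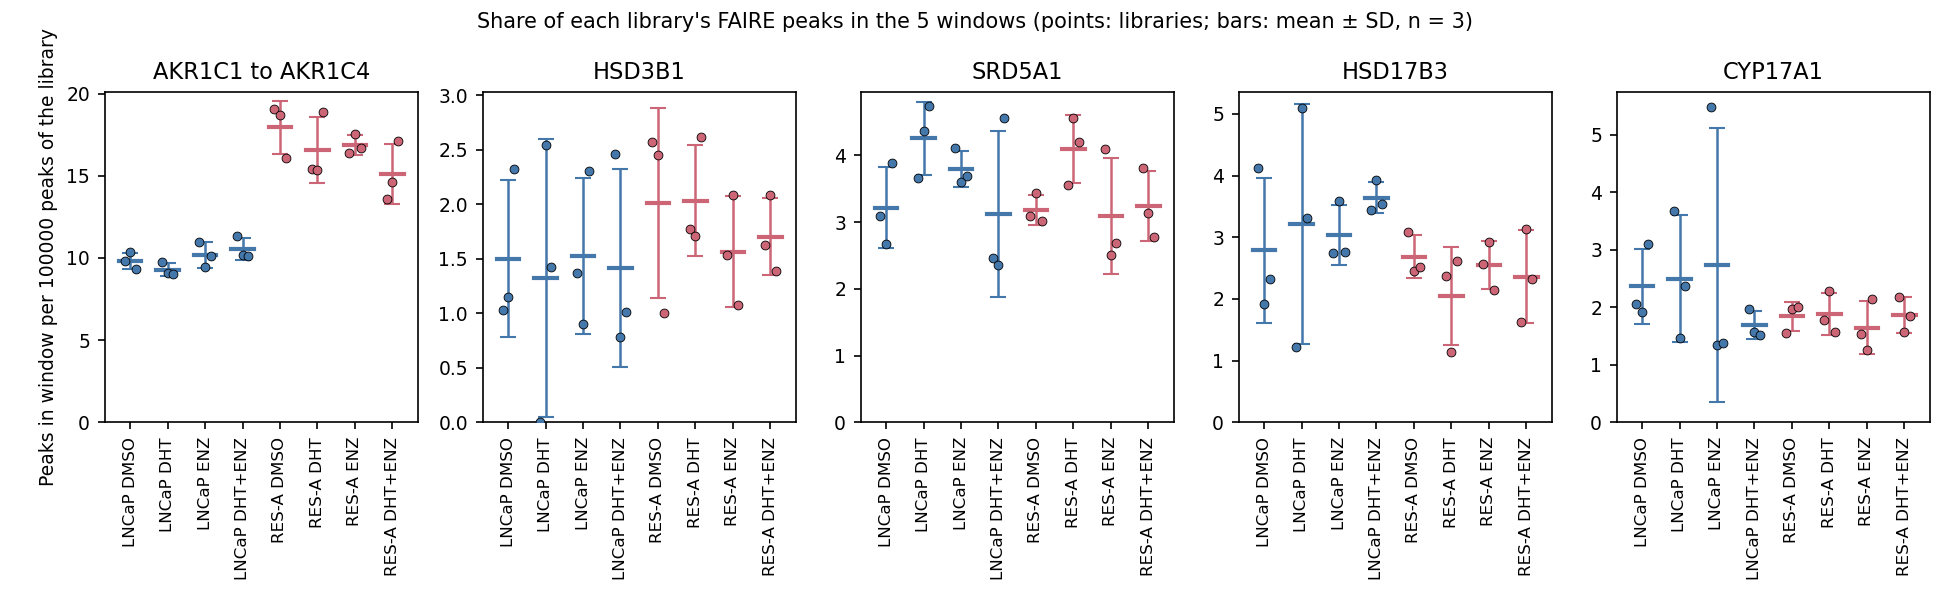
Peaks per 100000 peaks of the list in each of the 5 windows, by subline and treatment; points are libraries and bars the mean ± SD of 3. In the AKR1C window the RES-A libraries (13.6 to 19.1) sit above the LNCaP libraries (9.01 to 11.3), and in the other 4 windows the sublines overlap.

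The AKR1C regions that differed between the sublines were mostly present in RES-A and missing in LNCaP. Of the 116 regions, 63 were called in 1 library, 21 in 2 to 5, 20 in 6 to 18 and 12 in 19 or more. Called presence was tested for the 20 regions in 6 to 18 libraries, of which 8 had significantly more RES-A calls and 1 significantly more LNCaP calls (Fisher's exact test, two-sided, Benjamini-Hochberg adjusted over 124748 regions). Over all those regions the shares were 26.7% and 18.8%. The median difference in the share of libraries with a call was 45.8 percentage points over the 20 AKR1C regions and 0 over all regions tested.

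The region chr10:5122071-5122492, 132.3 kb from the window's start, separated the sublines fully. It was called in all 12 RES-A libraries and in 0 of 12 LNCaP libraries (adjusted p = 1.94e-05). This pattern was found in 1 of the 116 AKR1C regions and in 4460 of all 744442 regions. The fold enrichment of chr10:5122071-5122492 over local background, the peak caller's measure of height, in the 3 RES-A DMSO libraries was 3.36, 3.86 and 6.06. The DHT libraries had 4.57, 5.66 and 4.43, the ENZ libraries 5.28, 4.44 and 4.49, and those with both agents 4.06, 5.60 and 3.93. These treatment ranges overlapped.

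The region chr10:5056469-5056888, 66.7 kb from the start, was called in 10 RES-A libraries and 1 LNCaP library (adjusted p = 0.00316). In RES-A its folds were 8.42, 5.82 and 7.45 with DMSO. With ENZ they were 4.46, 5.42 and 5.72, so the 3 DMSO libraries lay above the 3 ENZ libraries (not tested). The region was missing in 1 RES-A library with DHT and 1 with DHT+ENZ. The only LNCaP call was in an ENZ library, at 2.94.

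Of the other regions past the threshold, 6 were RES-A regions. They were called in 8 to 12 RES-A libraries and in 0 or 1 LNCaP library (adjusted p 1.21e-04 to 0.00535) and lay between 4.1 and 199.7 kb from the window's start, so that they were spread over most of the gene cluster. The one LNCaP region, chr10:5255326-5256026 at 265.7 kb, was called in 10 LNCaP libraries with folds of 2.95 to 5.65 and in 1 RES-A library at 3.68 (adjusted p = 0.00316).

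**Figure D2:**
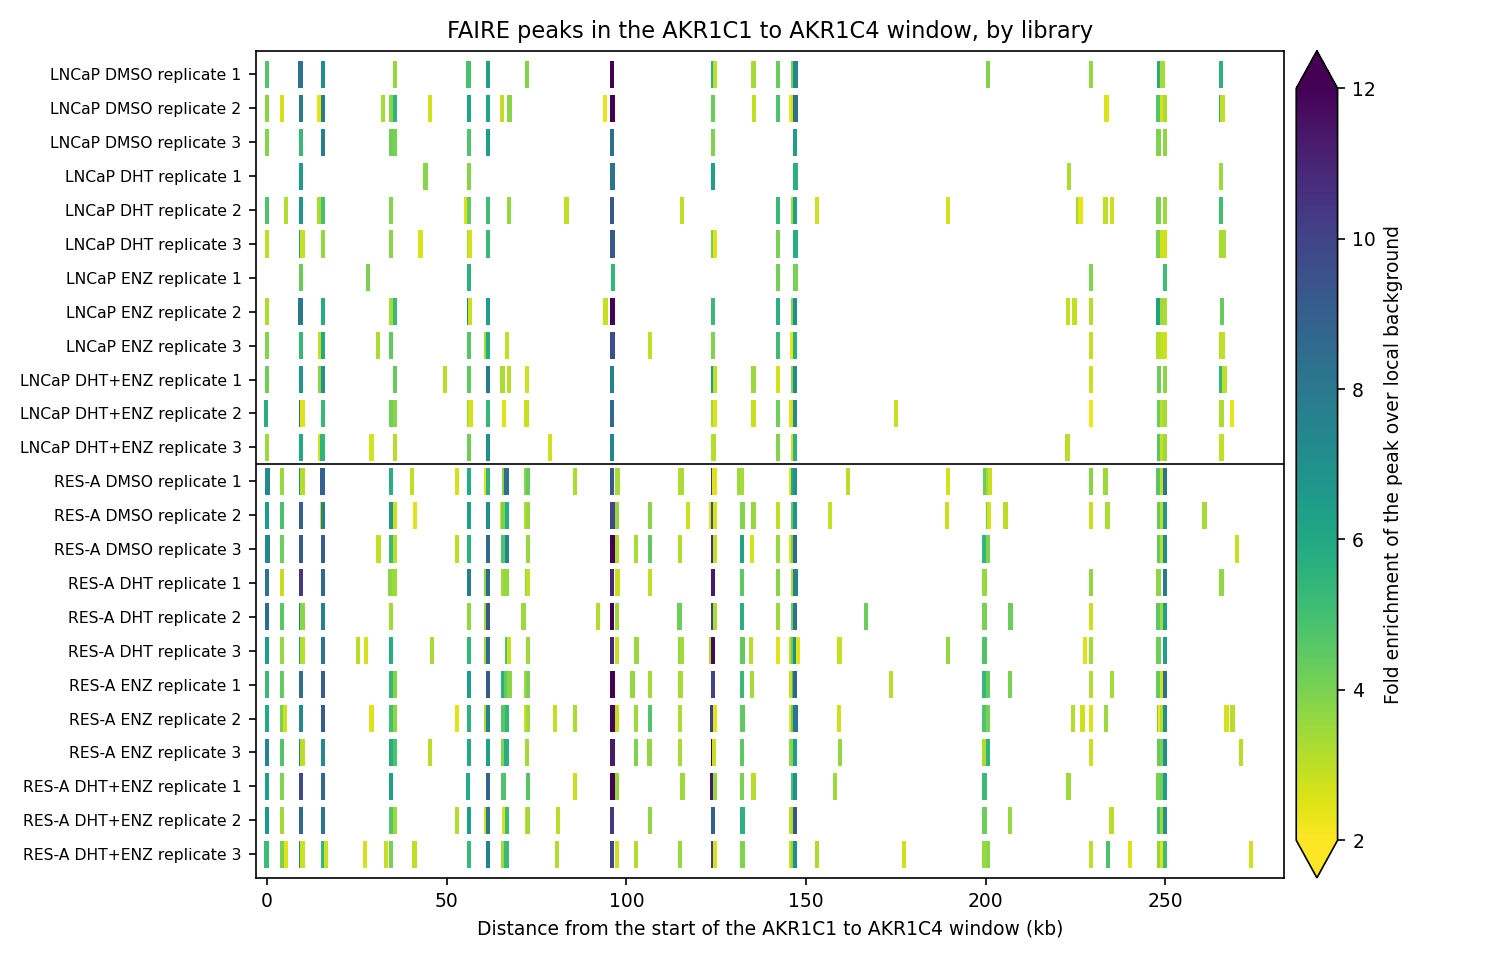
Peaks in the AKR1C window, 1 row a library; the horizontal axis is the distance in kb from the window's start and the color is fold enrichment. LNCaP libraries have 8 to 27 peaks and RES-A libraries 25 to 42, and the region at 132.3 kb is seen in RES-A only. Of all 744442 regions, 4460 were called in every RES-A library and in no LNCaP library.

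The sites that every library shared in the AKR1C window did not follow this difference. The tallest, chr10:5085814-5086365 at 96.1 kb, ranked on average at the 92.8th percentile of its library's peaks. Its fold enrichment was 5.36 to 12.59 in LNCaP (median 8.90) and 9.25 to 13.29 in RES-A (median 11.11), and these ranges overlapped. The folds were then quantile-normalized over the 29296 regions called in all 24 libraries, which sets each library to the same distribution. After this the log2 difference was -0.09 (SE 0.070, limma adjusted p = 0.344), so the higher raw median in RES-A was not kept. Without the 2 libraries of lowest background, in a fit of regions called in all the others, the log2 difference was -0.17 (adjusted p = 0.0221). Raw folds, here and below, can carry a shift of a whole library that normalization takes out.

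The other shared AKR1C regions gave like results on the normalized scale. The log2 difference was -0.01 at chr10:5136777-5137209 (folds 4.05 to 8.28 in LNCaP and 6.39 to 9.29 in RES-A, adjusted p = 0.947). It was 0.04 at chr10:4999129-4999621 (4.27 to 8.27 and 6.82 to 10.39, adjusted p = 0.724) and 0.11 at chr10:5045737-5046359 (3.36 to 7.33 and 3.65 to 7.78, adjusted p = 0.378). None of these passed a threshold that 35.8% of the regions passed, 17.9% in each direction.

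Of the 10 AKR1C regions called in at least 20 libraries, 2 were taller and 1 was lower in RES-A, and all 3 are named after their values were seen. At chr10:5113417-5114825, 124.1 kb from the start, the folds in the 10 LNCaP libraries with a peak were 3.11 to 6.30 (median 4.19) and in the 12 RES-A libraries 9.01 to 11.99 (median 10.24), without overlap. The difference was 1.82-fold on the normalized scale (log2 0.87, SE 0.103, limma adjusted p = 1.17e-07) in a fit over regions called in at least 20 libraries, which leaves out the missing values. At chr10:5239648-5240166, 249.9 kb from the start, 10 LNCaP libraries had 2.72 to 5.06 and the RES-A libraries 5.14 to 8.31, again without overlap (log2 0.73, SE 0.10, adjusted p = 1.08e-06). The lower one, chr10:5237919-5238513, had folds of 3.17 to 6.27 in 10 LNCaP libraries and 3.66 to 4.85 in RES-A, which overlapped (log2 -0.26, SE 0.096, adjusted p = 0.0302). Of the 10 AKR1C regions, 8 were called in all libraries other than the 2 of lowest background. In a fit of regions called in all of those, 0 of the 8 were higher in RES-A and 2 were lower. A region outside the 8 was not fitted there, so its difference was not retested. The count of 0 does not by itself show that a taller region lost its call. In the wider fit, over regions called in at least 20 libraries, 43.4% of 92306 regions passed, 23.1% higher and 20.2% lower in RES-A. How many of all regions had folds without overlap was not counted. Of the 21 member regions in the wider fit 5 were higher and 3 lower.

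HSD3B1, which is needed to turn adrenal precursors into active androgen, had 78 peaks in 13 regions. The share was 0 to 2.55 peaks per 100000 in LNCaP (median 1.26) and 1.01 to 2.62 in RES-A (median 1.74), and the sublines overlapped (log2 difference 0.37, SE 0.24, limma adjusted p = 0.210). Among the 50000 top-ranked peaks of each list the window held 0 or 1 in LNCaP and 1 or 2 in RES-A, and there the share was higher in RES-A (log2 1.83, adjusted p = 2.98e-04). At such low counts the size of this difference depends on the pseudocount of 0.5. How many of all windows and tiles passed in this setting was not counted. The region called in most libraries, chr1:120049440-120049966, was nonetheless taller in RES-A. In LNCaP the DMSO libraries had folds of 4.71, 5.17 and 4.29, the DHT libraries 4.56 and 4.27 (no peak in replicate 1), the ENZ libraries 3.94, 7.09 and 3.86 and the DHT+ENZ libraries 5.26, 4.62 and 3.95. In RES-A the same groups had 9.26, 9.65 and 10.27 (DMSO), 8.38, 8.68 and 9.45 (DHT), 8.35, 8.71 and 9.86 (ENZ) and 8.02, 7.59 and 8.22 (DHT+ENZ). Every RES-A library lay above every LNCaP library with a peak. The difference was 1.56-fold on the normalized scale in the wider fit (log2 0.64, SE 0.091, adjusted p = 1.42e-06), where 43.4% of all regions passed. The local background at HSD3B1 peaks, as a multiple of the library's background, was 1.08 in LNCaP and 1.45 in RES-A (medians), and its part in the difference was not tested.

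SRD5A1, which makes DHT from testosterone, had 161 peaks in 21 regions. The share overlapped between LNCaP (2.35 to 4.74 peaks per 100000) and RES-A (2.51 to 4.56), with a log2 difference of -0.06 (SE 0.11, adjusted p = 0.678). Its flanks had more peaks in RES-A, at 95.1 to 115 per 100000 against 74.4 to 90.5. Per 100 flanking peaks the window held fewer in RES-A, 2.53 to 4.37 against 3.0 to 6.37 (log2 difference -0.36, exact permutation p = 0.0016). This alternative was added after seeing the data and was not adjusted over the windows. By it the log2 difference was 0.21 at HSD3B1 (exact permutation p = 0.266), -0.25 at HSD17B3 (0.0944) and -0.24 at CYP17A1 (0.0570). Of the 4 SRD5A1 regions called in at least 20 libraries, 1 was stronger and 2 were weaker in RES-A. At chr5:6633096-6633595, 23.3 kb from the window's start and called in all 24 libraries, LNCaP folds were 3.42 to 7.11 (median 5.05) and RES-A folds 3.22 to 5.77 (median 4.60). These overlapped on the raw scale, and the normalized strength was lower in RES-A (log2 difference -0.36, SE 0.102, limma adjusted p = 0.00635).

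At chr5:6635885-6636969, 26.4 kb from the start and chosen after its values were seen, the strength was higher in RES-A. LNCaP folds were 2.81 to 4.48 in the 11 libraries with a peak and RES-A folds 4.65 to 8.23, without overlap (log2 0.40, SE 0.080, adjusted p = 1.63e-04 in the wider fit). In that fit 43.4% of all regions passed between the sublines. The other weaker region, chr5:6669226-6669938, also named after its values were seen, had folds of 3.62 to 9.42 in LNCaP and 3.55 to 6.17 in RES-A, which overlapped (log2 -0.46, SE 0.111, adjusted p = 0.00129). The local background at SRD5A1 peaks was 1.44 times the library's background in LNCaP and 2.16 times in RES-A (medians), and its part in these values was not tested.

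HSD17B3, best known as the testosterone-making enzyme of the testis, had 135 peaks in 29 regions, of which 16 were called in a single library. LNCaP alone held 14 (48.3%, against 38.4% of all regions) and RES-A alone 5 (17.2%, against 25.7%). The share was 1.22 to 5.10 per 100000 in LNCaP and 1.14 to 3.13 in RES-A, with overlap (log2 difference -0.30, adjusted p = 0.137). Without LNCaP DHT replicate 1 it was -0.42 (adjusted p = 0.0135), so that 1 library decided this call. The region chr9:99079581-99079993 was called in 23 libraries, with folds of 4.41 to 7.95 in LNCaP and 5.66 to 11.06 in RES-A that overlapped, and a log2 difference of 0.02 (SE 0.093, adjusted p = 0.886 in the wider fit).

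CYP17A1, at the entry to androgen synthesis, had 88 peaks in 10 regions. The share was 1.35 to 5.48 in LNCaP and 1.25 to 2.28 in RES-A (log2 difference -0.20, adjusted p = 0.353). Its strongest region, chr10:104613802-104614876, was called in all 24 libraries, at folds of 4.89 to 12.15 in LNCaP (median 8.46) and 9.44 to 14.33 in RES-A (median 11.77), with overlap. The normalized strength was higher in RES-A (log2 difference 0.17, SE 0.065, limma adjusted p = 0.0412), but the call was lost without any 1 of 12 of the 24 libraries. The local background at CYP17A1 peaks had the same median in both sublines, 1.17 times the library's background.

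**Figure D3:**
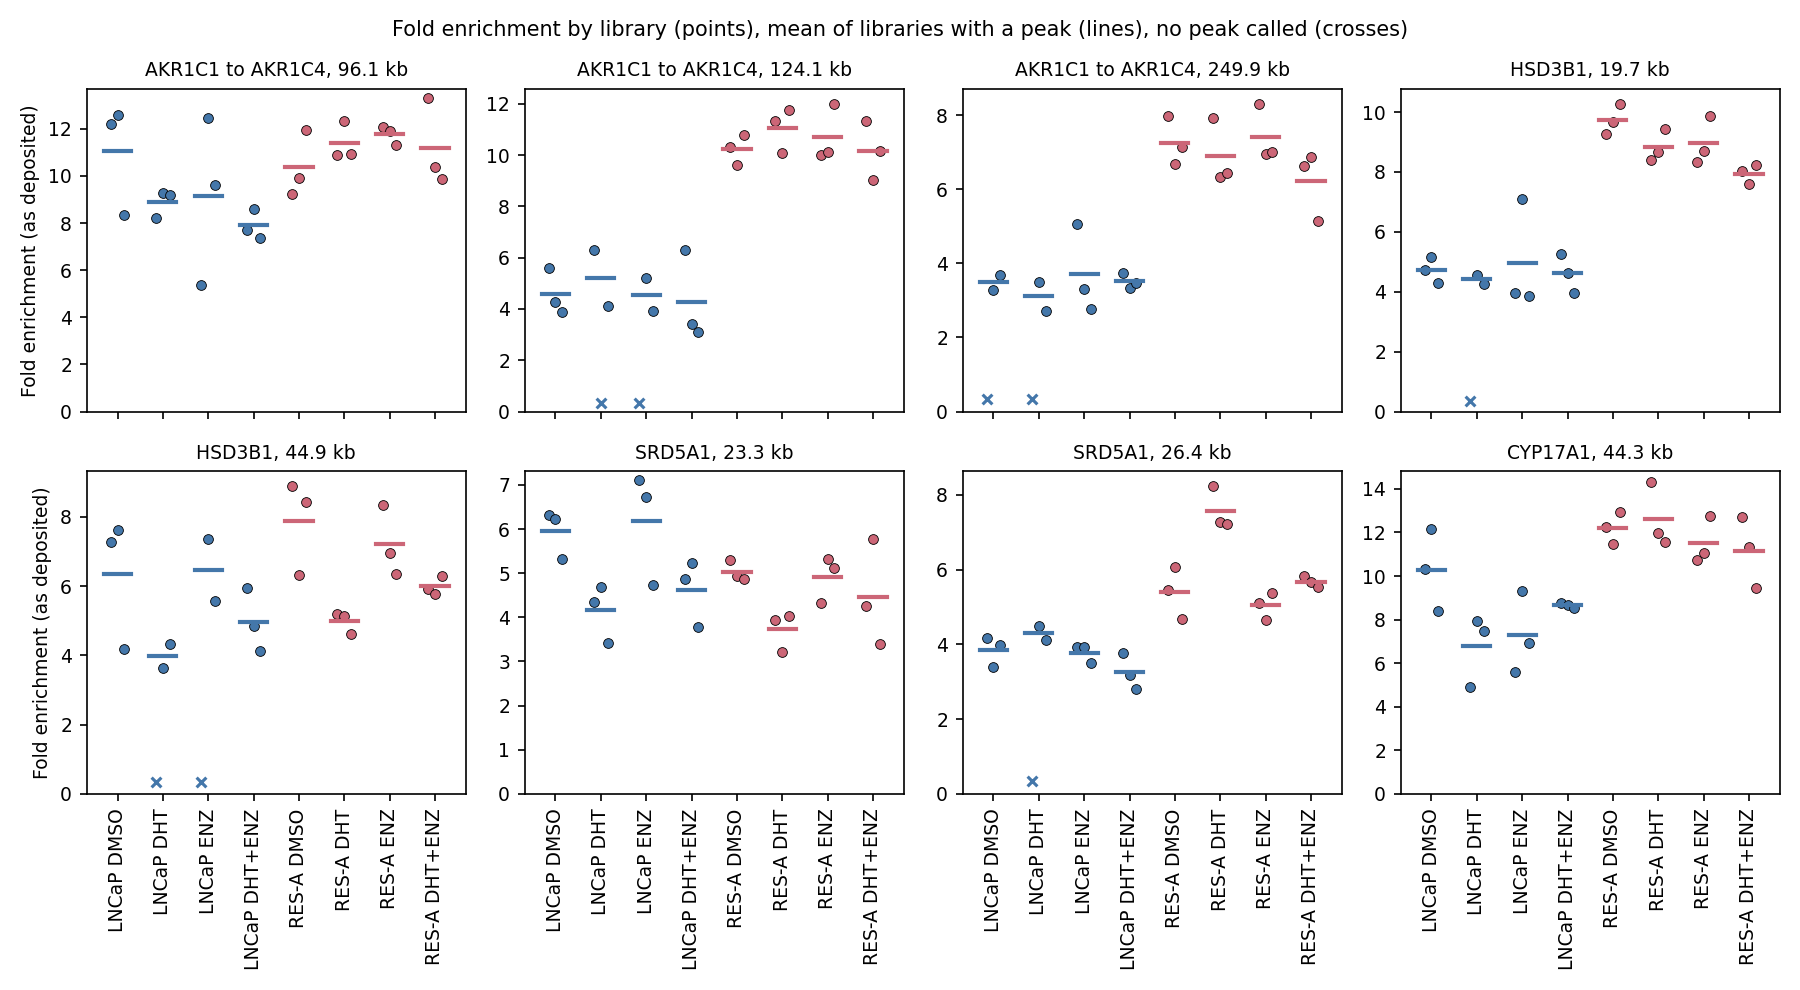
Fold enrichment by library, subline and treatment at 8 regions, each named by its window and its distance in kb from the window's start; crosses mark libraries with no peak. At AKR1C 124.1 kb and 249.9 kb, HSD3B1 19.7 kb and SRD5A1 26.4 kb every RES-A value lies above every LNCaP value, and at the others the sublines overlap. The folds are raw, so a shift of whole libraries is not taken out. The AKR1C regions at 124.1 kb and 249.9 kb were picked for their low adjusted p. How many of all regions show no overlap was not counted, and 43.4% passed between the sublines in the wider fit.

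The second question was what DHT and ENZ did at these genes. The share of peaks did not pass the threshold for DHT in any window, with log2 differences (with minus without DHT, over both sublines) of -0.08 for AKR1C (adjusted p = 0.808), -0.09 for HSD3B1 (0.956), 0.11 for SRD5A1 (0.859), -0.05 for HSD17B3 (0.970) and -0.04 for CYP17A1 (0.979). Over the genome 0.00369% of windows and tiles passed for DHT and 0% for ENZ.

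Called presence gave no treatment call either. By Fisher's exact test 0 of the 26 member regions in 6 to 18 libraries passed for DHT and 0 for ENZ, as did 0.0% of all regions. At an unadjusted p under 0.05 there were 2 for DHT and 0 for ENZ, against 3.38% and 0.803% of all regions. One of the 2 was the HSD3B1 region chr1:120051424-120051850, 21.6 kb from the window's start, which was called in 8 of 12 libraries with DHT and 1 of 12 without (exact p = 0.00942, adjusted p = 0.736). RES-A with DHT had it in all 3 libraries at folds of 6.16, 5.87 and 4.46, RES-A DHT+ENZ in 2 at 4.35 and 2.51, LNCaP DHT in 2 at 4.35 and 2.91 and LNCaP DHT+ENZ in 1 at 3.70. No DMSO library had it, and the only call without DHT was in a RES-A ENZ library at 2.63.

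The AKR1C region chr10:5132015-5132359, chosen after its values were seen, passed neither test. It was called in 10 of 12 LNCaP libraries, at 2.69 to 5.62, with 2 or 3 in each treatment. In RES-A it was called in 2 DMSO libraries at 2.97 and 3.54 and in 3 DHT libraries at 3.78, 3.45 and 2.48, but in none of the 6 libraries with ENZ. The adjusted p was 0.156 between the sublines, and for ENZ, with 6 of 12 libraries against 9 of 12 without, it was 1.0.

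**Figure D4:**
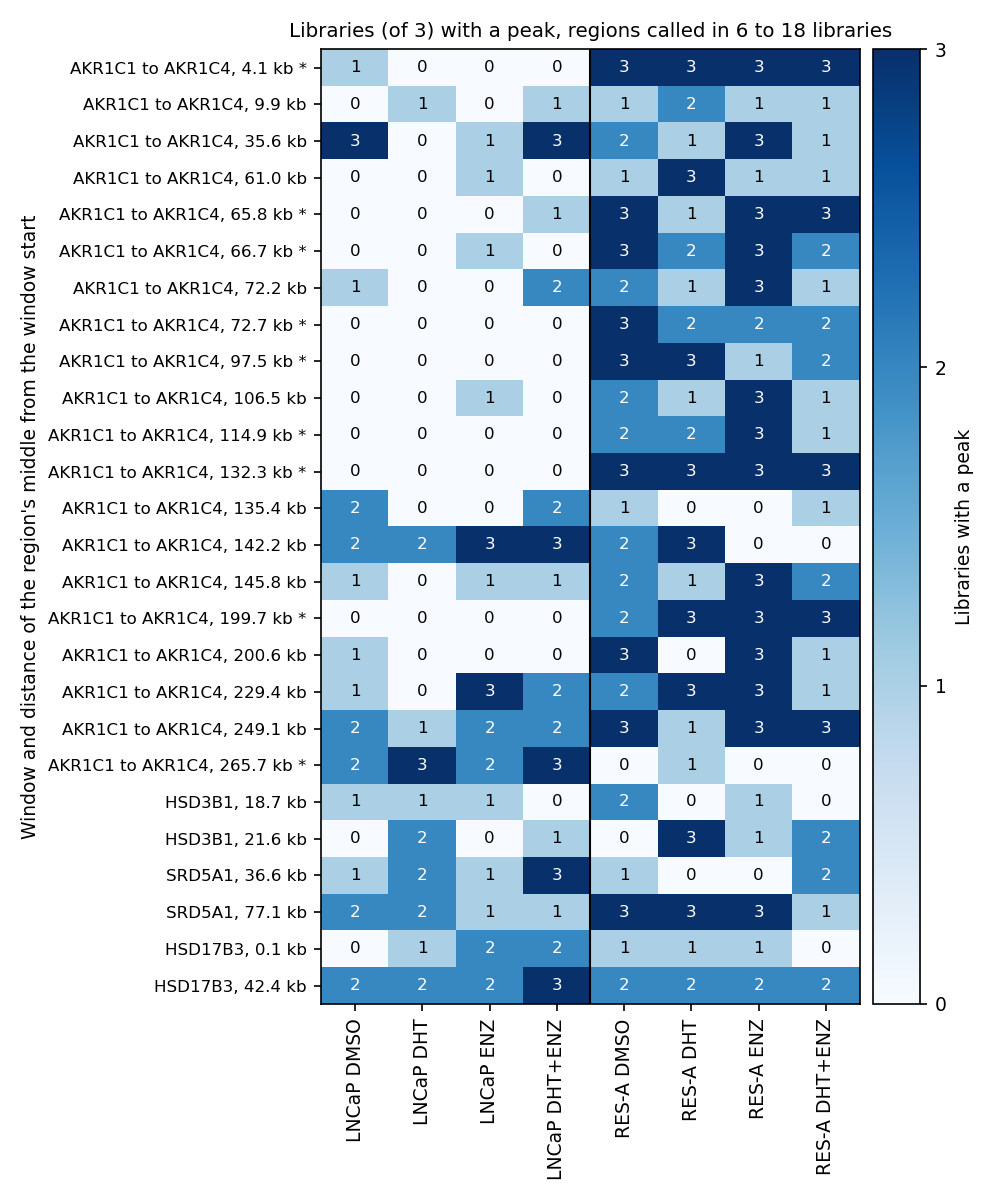
Number of the 3 libraries of each group in which each of the 26 member regions tested was called; an asterisk marks the 9 that passed Fisher's exact test between the sublines. All 9 lie in the AKR1C window, 8 of them called more often in RES-A.

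Peak strength passed the threshold for DHT at a few member regions. Such calls were not particular to these genes, as 10.2% of all regions passed in the wider fit. With all 24 libraries, the SRD5A1 region chr5:6633096-6633595 was weaker with DHT over both sublines (log2 difference -0.32, SE 0.102, limma adjusted p = 0.0491, against 8.92% of all regions past the threshold, 3.24% lower). Its RES-A folds were 5.30, 4.93 and 4.87 with DMSO and 3.94, 3.22 and 4.02 with DHT, and its LNCaP folds 6.32, 6.23 and 5.32 with DMSO and 4.35, 4.69 and 3.42 with DHT, so that the raw folds with DHT lay below those with DMSO in each subline. On the normalized scale the LNCaP groups overlapped (2.498, 2.31 and 2.07 with DHT against 2.54, 2.41 and 2.55). DHT minus DMSO alone did not pass in RES-A (log2 -0.42, adjusted p = 0.331) or in LNCaP (-0.21, adjusted p = 0.633). The call was lost without any 1 of 18 of the 24 libraries (adjusted p 0.0515 to 0.0999).

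The neighboring region chr5:6635885-6636969 was stronger with DHT. RES-A had 5.45, 6.06 and 4.67 with DMSO and 8.23, 7.26 and 7.21 with DHT, while ENZ gave 5.11, 4.65 and 5.39 and DHT+ENZ 5.81, 5.66 and 5.53, so that the 3 DHT libraries lay above all others of the subline. Over both sublines the log2 difference with minus without DHT was 0.27 (SE 0.080, adjusted p = 0.0258 in the wider fit, where 10.2% of regions passed). Within RES-A, DHT minus DMSO was 0.45 and did not pass (adjusted p = 0.0788). The LNCaP values by treatment are not given here, so a rise in LNCaP alone is not shown.

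At HSD3B1, the region chr1:120074521-120075246, 44.9 kb from the window's start and chosen after its values were seen, was weaker with DHT. In RES-A the folds were 8.89, 6.31 and 8.44 (DMSO), 8.36, 6.97 and 6.36 (ENZ), 5.21, 5.13 and 4.63 (DHT) and 5.93, 5.76 and 6.28 (DHT+ENZ). All 6 RES-A libraries with DHT lay below the 6 without it. In LNCaP they were 7.29, 7.62 and 4.18 (DMSO), 7.36 and 5.59 (ENZ, no peak in replicate 1), 3.64 and 4.32 (DHT, no peak in replicate 1) and 5.96, 4.85 and 4.12 (DHT+ENZ), and those with and without DHT overlapped. Over both sublines the log2 difference was -0.33 (SE 0.099, limma adjusted p = 0.0331 in the wider fit). Within RES-A, DHT minus DMSO passed only in a fit without the 2 libraries of lowest background (log2 -0.56, adjusted p = 0.0434, against 9.66% of regions; 0.0679 in the wider fit). Within LNCaP it did not pass (log2 -0.30, adjusted p = 0.495 in the wider fit).

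No member region passed for ENZ over both sublines in the limma fit of the 24 libraries or in the wider fit, where 0.0205% and 0.0574% of all regions did. At an unadjusted p under 0.05 there were 0 of 6 member regions in the first (9.58% of all regions) and 2 of 21 in the second (11.1%). Within each subline 0 of the 6 regions called in all libraries passed for DHT minus DMSO, ENZ minus DMSO or DHT+ENZ minus DHT. At an unadjusted p under 0.05 there were 1, 0 and 0 in RES-A and 0, 2 and 1 in LNCaP, against 14.8%, 1.5% and 6.97% of all regions in RES-A and 18.1%, 9.46% and 12.5% in LNCaP. After adjustment 4.66%, 0% and 0% of all regions passed in RES-A and 2.36%, 0% and 0.294% in LNCaP.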

How the data were processed

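FAIRE-seq libraries (Illumina, 50-base single-end reads) had been aligned to hg19 with BWA 0.7.8-r455, processed with Picard 1.118 and called for peaks with MACS2 2.1.0, 1 list a library, according to the submitters' processing notes and the file headers. The deposited signal column is the pileup at the summit in reads, the deposited fold column is a ratio of pileup to local background, and the deposited p-value and q-value columns are on the −log10 scale. Read depth is not given in the lists, and local background was taken as pileup plus 1, divided by fold enrichment, minus 1.

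Peaks off the main chromosomes were left out of all counts and shares. Peaks of the 24 lists were merged at an overlap of at least 1 base. Called presence was compared by Fisher's exact test over regions called in 6 to 18 libraries. Strength was the log2 fold enrichment of the peak with the highest −log10 p in a region, quantile-normalized over regions called in all 24 libraries, or in at least 20 with missing values left out. Shares were log2 peaks per 100000 plus 0.5 over the 5 windows and 100 kb tiles with a mean of at least 1 peak. Strength and shares were fitted with limma 3.58.1 in R 4.3.3, 1 mean a group over 8 groups, with Benjamini-Hochberg adjustment over all features and a threshold of 0.05. The scripts were tested on simulated data. The p-values measure the spread between libraries.

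Named in each window were regions called in all libraries or past the threshold in the planned tests, at most 6 by mean percentile, or else the region called in most libraries. The windows, lists and tests were chosen with earlier results of these data known. Because the annotation used here was on GRCh38 and the peaks on hg19, other genes of the pathway, genes of like pattern and promoter peaks were not analysed here, and no coordinates were moved between builds. Alternatives covered the 50000 top-ranked peaks, a q of 0.01, 2 to 22 libraries, the percent of the window covered, median centering, a depth covariate, a replicate block, the pseudocount and leaving out libraries.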

Additional observations from a re-analysis of the deposited data

Results flagged for a closer look

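At the CYP17A1 region chr10:104613802-104614876 the libraries with ENZ added to DHT lay on opposite sides of the DHT mean in the 2 sublines, without passing the test in either. On the normalized log2 scale the 3 LNCaP DHT+ENZ libraries lay 0.14, 0.20 and 0.35 above the mean of the LNCaP DHT libraries, a mean of 0.23. The 3 RES-A libraries lay below theirs, at -0.06, -0.09 and -0.23, a mean of -0.12. The adjusted p (limma) was 0.473 in LNCaP and 0.977 in RES-A, and the difference between the sublines was not tested. Without LNCaP DHT replicate 1, a library of low background, the LNCaP difference was 0.07 (adjusted p = 0.956), without LNCaP DHT replicate 3 it was 0.38 (0.166), and without RES-A DHT replicate 1 the RES-A difference was -0.04 (adjusted p = 1.0).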

How the results depend on the processing

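The higher AKR1C share in RES-A over all treatments kept its call under every alternative run, the smallest difference being that per 100 flanking peaks (0.20). The number of member regions differing in strength between the sublines depended on which regions were fitted: 2 with all libraries, 8 with regions called in at least 20 libraries, 7 of the 17 called in all 22 libraries other than the 2 of lowest background, and 1 when those libraries were left out of the same 6 regions, and it was 1 to 2 with each library left out in turn. DHT minus DMSO in RES-A gave 0 of the 6 regions with or without those 2 libraries, and 1 of the 17 regions called in all 22 others, a region outside the 6. The HSD3B1 share reached 1.83 with the 50000 top-ranked peaks (limma adjusted p = 2.98e-04), on 0 or 1 peak in a LNCaP library and 1 or 2 in a RES-A library. The SRD5A1 share was -0.36 per flanking peaks (exact permutation p = 0.0016, not adjusted, added after seeing the data). The HSD17B3 share was -0.44 without the 2 libraries of lowest background (limma adjusted p = 0.00831) and -0.42 to -0.21 with each library left out. The CYP17A1 region chr10:104613802-104614876 lost its call in the 20-library fit (adjusted p = 0.0782) and without the 2 libraries (0.0751 over the 6 regions, 0.226 over the 17). The SRD5A1 region chr5:6633096-6633595 lost its DHT call under median centering (0.0859) and in the fit of the 17 regions (0.0749), but not when the 2 libraries were left out of the 6 (0.0271). The cause of these changes was not tested. Of called presence, 9 regions passed in the main setting, 6 with the top-ranked peaks, 11 stratified by treatment and 9 to 11 with a library left out. The labels give replicates a number and do not say whether same-numbered libraries were prepared together. Between treatments, same-numbered libraries of LNCaP correlated at a mean r of 0.11 (-0.16 to 0.36), against -0.05 for other numbers. In RES-A the means were 0.016 and -0.0081. With the replicate number as a block, the counts were 9 for presence and 2 for strength and the AKR1C share was 0.71 (adjusted p = 6.93e-10), so the replicate block changed no call. Weak regions are limited by depth in the 2 libraries of lowest background.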
